A study of Mus musculus with 6 samples.

Results

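The LIM homeobox genes and their cofactors were examined in mouse neural progenitor cells (NPCs). The set was chosen by name and holds 10 genes: the LIM homeodomain factors Isl1, Isl2, Lhx2, Lhx3, Lhx4, Lhx9, Lmx1a and Lmx1b, the LIM-only gene Lmo4 and the LIM domain-binding cofactor Ldb1. All 10 had a row among the 15095 genes of the authors' deposited table, each under a single gene ID. The cells came from embryonic stem cells that formed aggregates for 4 days without and for 4 days with 5 uM retinoic acid, and PolyA RNA was taken at day 8 from 3 wild-type and 3 Setd2-KO libraries. The paper's methods name the HA36CB1 line as the embryonic stem cells, and the Setd2-KO line had been made in the same isogenic background. Neither labels nor methods state if the libraries stem from independent cultures, or how many clones they represent.

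The table gives 1 expression value per gene, the average log2 CPM (read counts scaled to library size) over the 6 libraries of both genotypes. Its other values are the authors' own comparison of the genotypes and were not used. The levels below therefore describe wild-type and Setd2-KO NPCs together, no spread between libraries can be attached to them, and a difference between the genotypes is not analysed here for any member. The depth of the libraries is unknown, so no confidence interval can be given, and a level in bulk RNA cannot separate the number of expressing cells from the RNA per cell.

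LIM homeodomain factors carry a pair of zinc-coordinating LIM domains before a DNA-binding homeodomain. The LIM domains bind LDB1, which dimerizes and so joins LIM homeodomain factors into larger complexes, as in motor neurons, where LHX3 and ISL1 are held together on LDB1. LIM-only proteins such as LMO4 have LIM domains but no homeodomain, and compete for LDB1. In the spinal cord the combination of LIM homeodomain factors is a classical code for neuronal classes: Isl1, Isl2, Lhx3 and Lhx4 in motor neurons, Lhx3 in V2 interneurons, Lhx2 and Lhx9 in dI1 interneurons, Isl1 in dI3 and Lmx1b in dI5 interneurons, and Lmx1a and Lmx1b in the roof plate.

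The 8 LIM homeodomain members form 4 pairs of paralogues. For each pair, the longest stretch of coding sequence without a difference is shown in capitals, with 20 bases on each side in lower case. The stretches were picked for this run, so they do not measure how alike the whole coding sequences are. The sequences were read from the canonical transcripts of GENCODE vM39 on GRCm39, 5′ to 3′ on the coding strand.
Isl1: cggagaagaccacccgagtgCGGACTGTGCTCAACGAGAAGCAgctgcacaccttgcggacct
Isl2: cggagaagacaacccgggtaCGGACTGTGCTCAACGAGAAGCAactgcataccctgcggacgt
Lhx2: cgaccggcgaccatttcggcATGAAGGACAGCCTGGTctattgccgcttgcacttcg
Lhx9: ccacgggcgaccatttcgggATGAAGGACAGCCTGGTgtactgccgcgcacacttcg
Lhx3: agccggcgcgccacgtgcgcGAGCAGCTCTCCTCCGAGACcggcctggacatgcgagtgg
Lhx4: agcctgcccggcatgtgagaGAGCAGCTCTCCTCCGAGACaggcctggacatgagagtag
Lmx1a: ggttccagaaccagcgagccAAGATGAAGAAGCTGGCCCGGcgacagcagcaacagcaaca
Lmx1b: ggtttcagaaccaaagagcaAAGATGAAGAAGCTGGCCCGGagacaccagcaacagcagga

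The run without a difference was 23 bases in Isl1 and Isl2, 17 bases in Lhx2 and Lhx9, 20 bases in Lhx3 and Lhx4 and 21 bases in Lmx1a and Lmx1b. The longest shared runs of the 24 other pairs had 9 to 19 bases, so the lengths overlapped with those of paralogues. Lhx2 and Lmx1b shared 19 bases, more than Lhx2 and Lhx9. With the flanks included, Isl1 and Isl2 differed at 7 positions of 63, Lhx2 and Lhx9 at 8 of 57, Lhx3 and Lhx4 at 9 of 60, and Lmx1a and Lmx1b at 8 of 61. The stretch of Isl1 lies at coding bases 533 to 595 and that of Isl2 at 563 to 625, counted from the A of the start codon. All windows of 100 bases in the longest transcript of each member were also looked up in the transcripts of every other gene of GENCODE vM39. On the same strand, 0 windows of any of the 10 members recurred in another gene. A window here is shorter than a read of the study. An error-free read of that length from these transcripts therefore matches no relative.

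The encoded proteins were nevertheless close within pairs. Translated from the same transcripts, ISL1 (349 residues) and ISL2 (359 residues) shared 75.0% of aligned residues, LHX2 (406) and LHX9 (397) 75.3%, LMX1A (382) and LMX1B (401) 70.6%, and LHX3 (400) and LHX4 (390) 65.9%. The 24 pairs of members that are not paralogues in this sense had between 30.4% (LHX2 and LHX4) and 43.5% (LHX9 and LHX3). The intervals of the 2 kinds of pairs did not overlap.

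**Figure D1:**
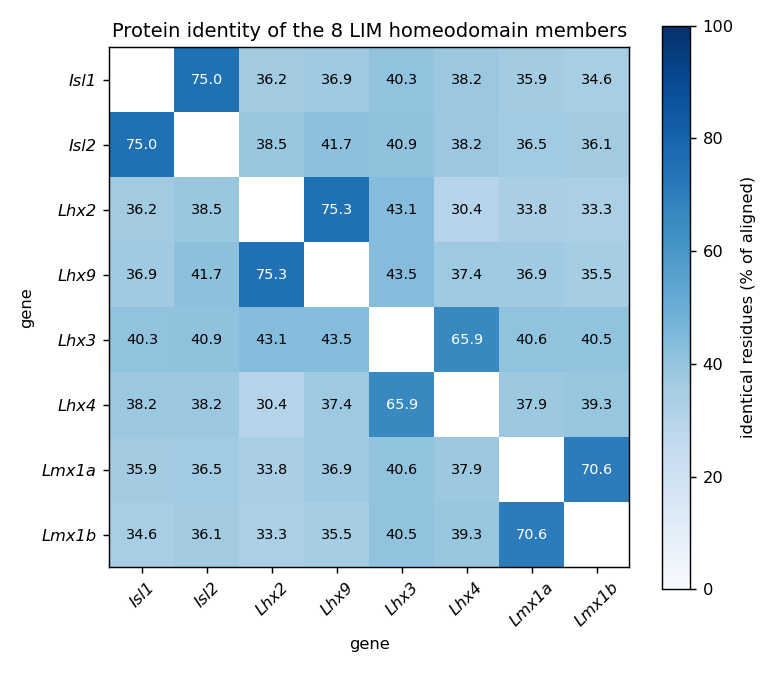
Share of identical residues among aligned residues (percent, colour scale and printed numbers) for each pair of the 8 LIM homeodomain members (both axes); the diagonal is left blank. The 4 paralogue pairs lie between 65.9% and 75.3%, and the 24 other pairs between 30.4% and 43.5%.

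To compare levels between genes, the authors' average CPM was divided by the length of the longest annotated transcript and is given as log2 CPM per kb. The median over the 15066 genes with a length was 2.45 on this scale. On this scale, markers of neural progenitors and of neurons were both above this median. The 6 neural progenitor markers in the table lay between 3.65 (Fabp7) and 8.27 (Vim) log2 CPM per kb. The 5 neuronal markers lay between 4.94 (Dcx) and 8.07 (Tubb3). Sox1, a further progenitor marker, had no row in the table as used here. For Fabp7 this depended on its short transcript of 943 bases. Without division, its average log2 CPM of 3.56 lay below the median gene (4.57) and below Sox17 (4.83), Cdh5 (4.38) and Klf4 (3.71). On coding length Sox17 (4.50) was also above Fabp7 (4.39). The other progenitor and neuronal markers in the table stayed above these genes on both measures. Per kb of the longest transcript, markers of other cells were lower. The pluripotency markers ran from -1.74 (Nanog) to 2.09 log2 CPM per kb (Klf4), the endoderm markers from 1.19 (Gata6) to 2.79 (Sox17), the mesoderm markers from -1.58 (T) to 2.11 (Hand2) and the endothelial markers from 0.90 (Kdr) to 2.34 (Cdh5). Of the 4 endoderm markers, 2 lay above the median gene. Of 3 microglial markers only Csf1r had a row, at -4.58, and Aif1 and Cx3cr1 had none. All 8 LIM homeodomain members lay below the highest marker of each of these lists other than the microglial one, and if other cells than NPCs add to the members' levels was not tested. The targeted gene Setd2 had an average log2 CPM of 6.88 over both genotypes, a value that cannot check the genotype of a library.

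Ldb1 had the highest level of the 10 members. Its average log2 CPM was 8.81, and 97.9% of genes lay at or below its level of 7.00 log2 CPM per kb. Ldb1 encodes the shared cofactor on which LIM homeodomain complexes assemble. It lies on chromosome 19 from 46019964 to 46033981 on the minus strand (GRCm39), where its canonical transcript has 11 exons. Its paralogue Ldb2 was at -1.90 log2 CPM per kb, so that Ldb1 was 477-fold higher. This fold is rough, since Ldb2 had an average log2 CPM of only -0.07. On the opposite strand, the protein-coding gene Pprc1 overlaps 177 exonic bases of Ldb1, or 3.50% of them. Pprc1 had an average log2 CPM of 7.13. The paper's methods name a directional library kit, which keeps the strand of a read. No source states that strand was used in counting, so if reads of this overlap were separated is not known.

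Lmo4 was the second of the members, with an average log2 CPM of 5.37 and 4.28 log2 CPM per kb, a level at or below which 80.2% of genes lay. LMO4 is a short protein of 165 residues that consists largely of LIM domains. The gene lies on chromosome 3 from 143894143 to 143911774 on the minus strand (GRCm39) with 5 exons. It was the highest of the 4 LIM-only genes: Lmo1 followed at 2.40 log2 CPM per kb, Lmo2 at 1.77 and Lmo3 at 0.01. Lmo4 stood 6.59-fold below Ldb1 and 6.54-fold above Lhx2, the highest LIM homeodomain member. These distances moved with the length used: on the log2 scale that to Ldb1 was 2.72, against 2.12 on coding length and 3.44 without division, and that to Lhx2 was 2.71, against 3.39 on coding length and 2.09 without division.

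The 8 LIM homeodomain members were all below the median gene. Their levels ran from -4.39 (Lhx4) to 1.57 log2 CPM per kb (Lhx2), with a median of -0.40, and spanned 62.2-fold. In the order of their levels they fell into 3 steps: Lhx2 and Lhx3, then Isl2, Lmx1b, Isl1 and Lmx1a, then Lhx9 and Lhx4.

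Lhx2, a factor of forebrain, eye and dI1 interneurons, had an average log2 CPM of 3.28 and 1.57 log2 CPM per kb. Lhx3, a factor of motor neurons, V2 interneurons and the pituitary, had an average log2 CPM of 2.55 and 1.39 log2 CPM per kb. These neighbours differed by 0.18, and their order turned when the length of all exonic bases was used, so that they cannot be ranked. Lhx2 lies on chromosome 2 from 38229293 to 38259759 on the plus strand and Lhx3 on the same chromosome from 26090224 to 26098301 on the minus strand (GRCm39). Both overlap long noncoding genes on the other strand: Gm75255 covers 222 exonic bases of Lhx2 (4.20%), and Gm27196 and Gm75664 cover 188 and 117 exonic bases of Lhx3 (6.17% and 3.84%). These 3 noncoding genes had no row in the table as used here.

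Isl2, Lmx1b, Isl1 and Lmx1a lay close together. Isl2, a factor of postmitotic motor neurons, was at 0.09 log2 CPM per kb. Lmx1b, a factor of the roof plate, of dorsal interneurons and of midbrain and hindbrain neurons, was at -0.38. Isl1, which motor neurons and dI3 interneurons use, was at -0.42, and Lmx1a, a factor of the roof plate and of midbrain dopaminergic neurons, at -0.90. The steps between neighbours were 0.46, 0.04 and 0.48. Without division by length, Isl1, Isl2 and Lmx1a had nearly equal average log2 CPM values of 0.92, 0.98 and 0.89, and Lmx1b had 2.04, so the place of Lmx1b in this group rests on its transcript of 5360 bases against 1854 bases for Isl2.

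These 4 genes differ widely in their span. Isl2 takes up 7.51 kb on chromosome 9 from 55445956 to 55453464 (plus strand), and Isl1 11.4 kb on chromosome 13 from 116434817 to 116446235 (minus strand). Lmx1b spans 80.1 kb on chromosome 2 from 33450977 to 33531093 (minus strand). Lmx1a spans 159.6 kb on chromosome 1 from 167516677 to 167676310 (plus strand), the longest of the members, and 97.8% of it is intronic (all GRCm39).

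Lhx9 and Lhx4 were near the lower end of the table. Lhx9, the dI1 relative of Lhx2, had an average log2 CPM of -1.76 and -4.06 log2 CPM per kb. Lhx4, the motor neuron and pituitary relative of Lhx3, had an average log2 CPM of -1.90 and -4.39 log2 CPM per kb. On the per-length scale, 1.30% of genes were at or below Lhx9 and 0.611% at or below Lhx4. The lowest average log2 CPM of any gene in the table was -2.54, and 1867 genes (12.4%) lay below 0, so both values rest on few reads. Lhx9 lies on chromosome 1 from 138752924 to 138776341 and Lhx4 on the same chromosome from 155573777 to 155627430, both on the minus strand (GRCm39).

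Paralogues thus stood at like levels in 2 pairs and far apart in the other two. Isl2 was 1.42-fold higher than Isl1 and Lmx1b 1.43-fold higher than Lmx1a, differences for which no replicate spread can be given. Lhx2 was 49.6-fold higher than Lhx9, and Lhx3 54.9-fold higher than Lhx4. Both folds are rough, since Lhx9 and Lhx4 rest on few reads and edgeR's prior count raises such low values. Lhx9 has transcripts of very different length, and the longest of 4937 bases was used here although its canonical transcript has 2065 bases. On coding length, which is close between paralogues, the difference was 5.01 on the log2 scale for Lhx2 and Lhx9, 4.41 for Lhx3 and Lhx4, 1.09 for Lmx1b and Lmx1a, and -0.02 for Isl1 and Isl2.

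**Figure D2:**
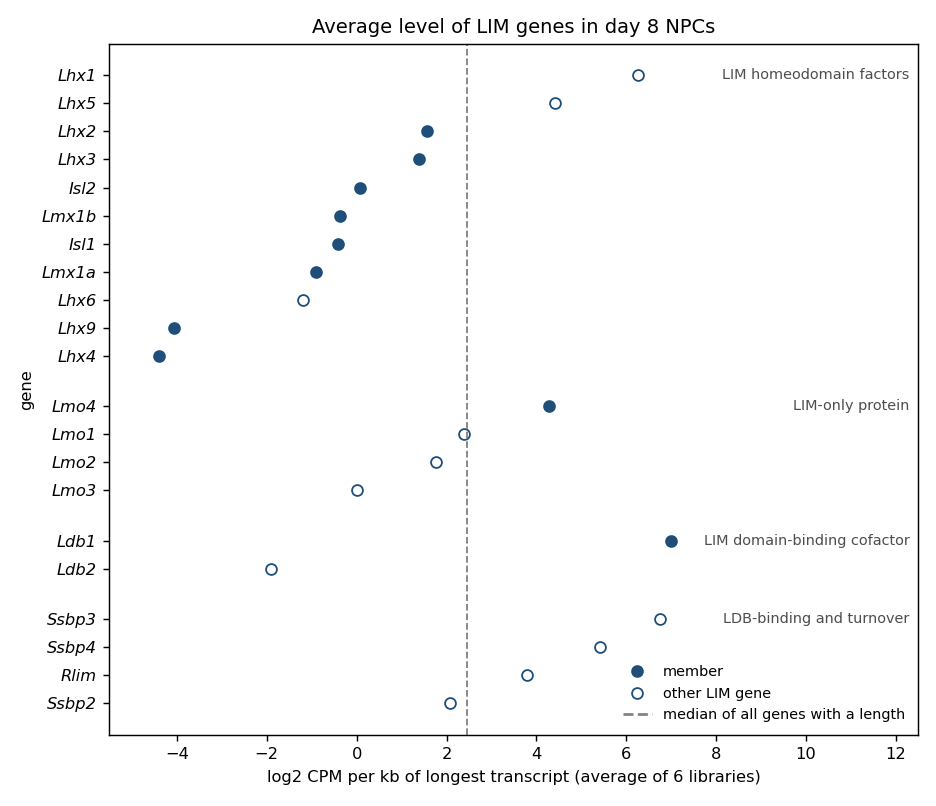
Average level in day 8 NPCs (x axis, log2 CPM per kb of the longest transcript, over 6 libraries of both genotypes) of the LIM genes in the table (y axis), grouped by role; filled points are the 10 members, open points other LIM genes, and the dashed line is the median of all genes with a length. Ldb1 (7.00) and Lmo4 (4.28) lie right of the median of 2.45, and the 8 LIM homeodomain members lie left of it.

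The LIM homeodomain members were not the leading LIM homeodomain genes of these cells. Of 12 other LIM genes, 11 had a row in the table, and Lhx8 had none. The LIM homeodomain gene Lhx1 was at 6.26 log2 CPM per kb and Lhx5 at 4.42, and both are known from dorsal and ventral interneuron classes. Lhx1 was 25.8-fold higher than Lhx2, a difference of 4.69 on the log2 scale that was 5.31 on exonic bases. Lhx6, a factor of forebrain interneurons, was at -1.18, between Lmx1a and Lhx9. When the per-length CPM of the 11 measured LIM homeodomain genes was added up, Lhx1 made up 71.4% and Lhx5 19.9% of the sum, and the 8 members together made up 8.21%. Within the members, the largest shares were those of Lhx2 (2.77%) and Lhx3 (2.44%), and the smallest those of Lhx9 (0.0557%) and Lhx4 (0.0445%).

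Genes that act on LDB1 spread over a wide range of levels. Ssbp3, which encodes a single-stranded DNA-binding protein that binds LDB1, was at 6.76 log2 CPM per kb, 0.24 below Ldb1 on the log2 scale, and on coding length the order of both turned. Ssbp4 was at 5.40 and Ssbp2 at 2.09. Rlim, a ubiquitin ligase that targets LDB1 complexes for turnover, was at 3.79. Each of these 4 genes lay above all 8 LIM homeodomain members.

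The genes of the cell classes that members mark are given beside them. Of 5 motor neuron genes, 4 had a row (Slc18a3 had none): Mnx1, a motor neuron homeobox gene, was highest at 1.58 log2 CPM per kb, next to Lhx2 and Lhx3, and Slc5a7, the choline transporter of cholinergic terminals, was lowest at -4.45, next to Lhx4. Of 4 dI1 genes, all had a row, from Barhl2 at -3.70 to Pou4f1 at 0.22 log2 CPM per kb. Pou4f1 is shared with other dorsal classes, and Atoh1 and Barhl1 were at -3.07 and -2.40. All 4 dI1 genes lay below Lhx2 (1.57) and above Lhx9 (-4.06) on this scale. On coding length, Barhl2 (-2.51) and Atoh1 (-2.06) lay below Lhx9 (-2.01). Of 3 dI3 and dI5 genes, 2 had a row under the symbol used, Pou4f1 and Tlx3, the latter at 1.64, and Drgx was listed under its older symbol Prrxl1 at -1.20.

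Of 3 genes of V2 interneurons, Gata2 was at 2.42 and Gata3 at 0.96 log2 CPM per kb, and Sox14 had no row. Roof plate genes were the highest of these lists, from Wnt3a at 0.82 to Msx1 at 3.56, and 2 of the 4 measured ones lay above the median gene, although Msx1 and Wnt genes are also used by other dorsal cells. Gdf7 had no row. Midbrain dopaminergic genes ran from Pitx3 at -3.82 to Foxa2 at 1.88. Foxa2 is also on the list of endoderm markers, and without it the highest dopaminergic gene was Nr4a2 at -0.16. Forebrain and retina genes ran from Six3 at -2.50 to Emx2 at 2.38. The motor neuron, dI1, midbrain dopaminergic and forebrain lists, and with Drgx the dI3 and dI5 list, thus held genes lower than Lmx1a. The levels of 1 average do not show which genes were expressed in the same cells.

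**Figure D3:**
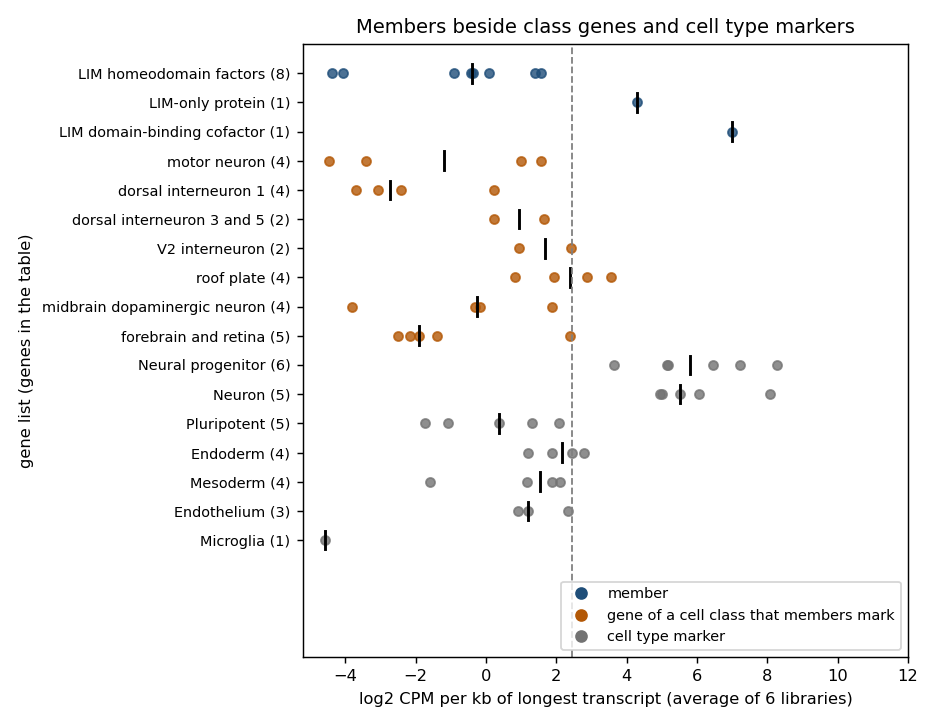
Level (x axis, log2 CPM per kb of the longest transcript, average of 6 libraries) of the members, of genes of the cell classes that members mark and of cell type markers (y axis, with the number of genes in the table); points are genes, black bars medians and the dashed line the median of all genes with a length. The LIM homeodomain members (median -0.40) overlap the class lists, while neural progenitor and neuronal markers lie at 3.65 or higher.

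The promoters of the members were rich in CpG dinucleotides. RefSeq windows of 300 bases around the start of a transcript, most of it upstream (GRCm38.p6), were found for all 10 members, 16 windows in all, since Ldb1 and Lmo4 have 3 each and Lhx2 and Lhx3 have 2 each. Their median was 26 CpG sites and a GC content of 68.2%, against 7 sites and 52.7% over all 32851 windows. The windows of 1 gene can overlap, as 2 of Lmo4 do. A window is shown for the member with the highest level, for a member of the middle group and for one of the lowest pair, with CpG sites in capitals.
Ldb1, chr19:46045262-46045561, minus strand: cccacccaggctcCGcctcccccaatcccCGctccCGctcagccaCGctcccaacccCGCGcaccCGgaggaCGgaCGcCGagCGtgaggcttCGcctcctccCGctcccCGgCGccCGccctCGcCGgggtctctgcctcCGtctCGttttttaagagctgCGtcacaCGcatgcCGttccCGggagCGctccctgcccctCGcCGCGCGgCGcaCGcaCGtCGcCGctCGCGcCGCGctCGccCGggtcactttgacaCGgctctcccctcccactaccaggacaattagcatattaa
Isl1, chr13:116309639-116309938, minus strand: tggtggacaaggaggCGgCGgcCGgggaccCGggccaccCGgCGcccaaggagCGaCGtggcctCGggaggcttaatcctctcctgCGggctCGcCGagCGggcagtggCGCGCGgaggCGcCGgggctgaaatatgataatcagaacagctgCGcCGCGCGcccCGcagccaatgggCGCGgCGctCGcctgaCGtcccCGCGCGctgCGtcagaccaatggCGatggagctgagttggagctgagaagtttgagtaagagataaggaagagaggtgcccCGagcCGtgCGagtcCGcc
Lhx9, chr1:138842395-138842694, minus strand: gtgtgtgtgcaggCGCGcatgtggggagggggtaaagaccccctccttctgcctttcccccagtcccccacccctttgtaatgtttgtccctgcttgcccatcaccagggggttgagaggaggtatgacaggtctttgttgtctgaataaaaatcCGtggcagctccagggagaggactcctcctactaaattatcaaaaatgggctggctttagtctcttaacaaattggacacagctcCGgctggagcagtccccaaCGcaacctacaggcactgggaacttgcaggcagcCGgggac

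The window of Ldb1 holds 41 CpG sites and that of Isl1 37, whereas that of Lhx9 holds 6. The other windows of Ldb1 hold 23 and 5 sites. Of the other members in the order of their levels, the window with the most sites holds 52 in Lmo4, 34 in Lhx2, 28 in Lhx3, 23 in Isl2, 24 in Lmx1b, 12 in Lmx1a and 19 in Lhx4. The highest counts were thus mostly those of the members with higher levels, with Isl1 as an exception. However, Ldb1, Lmo4, Lhx2 and Lhx3 are also the members with several windows, of which the largest count was taken. The order of the counts therefore cannot be told apart from the number of windows per gene. With 10 genes that share gene family and function, this is a description only.

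Short motifs were looked up on both strands of the same windows. The GC box GGGCGG, which SP factors bind, was in 11 of the 16 windows and in 7 of the 10 genes (Isl2, Ldb1, Lhx2, Lhx3, Lhx4, Lmo4 and Lmx1a), against 35.7% of all windows. It contains a CpG site and so is not separate from the CpG count. The TATA box TATAAA was in 1 window, that of Lhx3, against 13.6% of all windows. The letters TAATTA, a core that LIM homeodomain proteins bind, were in 0 of 16 windows against 5.29% of all, and AGGTCA, the half-site of retinoic acid receptors, in 0 of 16 against 16.3%. With 16 windows, a motif as rare as TAATTA can be absent without meaning. The windows of the members were also richer in GC (median 68.2% against 52.7%), and no motif share was compared at like GC content.

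The order of the members changed little with the length used. Of the 45 pairs of members, 42 kept their order when all exonic bases were used in place of the longest transcript, 44 on coding length and 44 without division. The pairs that turned were neighbours: Lhx2 and Lhx3, Isl1 and Lmx1a, and Lhx9 and Lhx4 on exonic bases, and Isl2 and Lmx1b on the other 2 measures. Ldb1 and Lmo4 were first and second on all 4 measures.

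**Figure D4:**
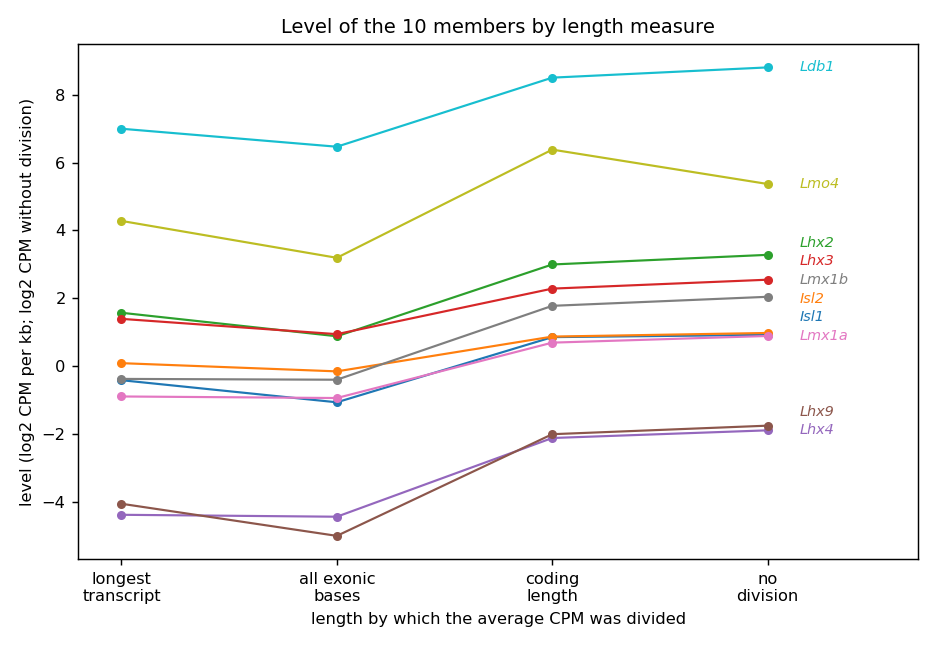
Level of the 10 members (y axis, log2 CPM per kb, or log2 CPM without division) after division of the authors' average CPM by the longest transcript, by all exonic bases, by coding length, or without division (x axis); each line is 1 gene. Ldb1 and Lmo4 stay on top, Lhx9 and Lhx4 at the bottom, and lines cross only between neighbours.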

How the data were processed

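The authors' deposited table, made from 3 wild-type and 3 Setd2-KO libraries of PolyA RNA, was analysed. The paper's methods name nf-core/rnaseq with Trim Galore, STAR and Salmon, GRCm39, GENCODE M35, a filter on low counts (filterByExpr), TMM normalization and edgeR, whereas the submitters' processing notes name NCBIM37 and mm9. The log2 values used here are the authors' deposited average log2 CPM over the 6 libraries, which edgeR computes after adding a small prior count, so that the lowest values are raised. The 4 remaining value columns hold the authors' comparison of the genotypes (log2 fold changes, shrunken and not, p-values and FDR) and were not used. No test between the genotypes was therefore made. Depth and spread per library are unknown.

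Gene IDs were matched without version to GENCODE vM39 on GRCm39, where 15066 of 15095 were found, and promoters by symbol to RefSeq (GRCm38.p6). No coordinates were converted. CPM was divided by transcript length. Proteins were translated from canonical transcripts and aligned globally (BLOSUM62). Python 3.11.15, numpy 2.4.6, pandas 2.3.3 and Biopython 1.88 were used, and steps were tested on simulated data. All 10 members, the other LIM genes and, of each class or marker list, the highest and lowest gene were to be named. Atoh1, Barhl1, Drgx and Nr4a2, list genes without a row and the genes with the largest exonic overlap with a member were named beyond this rule. Of the class lists, 2 genes are not reported here. The members and lists were chosen with earlier results of these data known. Alternative lengths, backgrounds, identity measures and synonyms were tried.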

Additional observations from a re-analysis of the deposited data

How the results depend on the processing

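The number of members above the median gene was 2 (Ldb1 and Lmo4) among all genes, among the 13228 genes at or above 0 log2 CPM, among the 14612 protein-coding genes and, in an alternative chosen after seeing the data, per kb of transcript. The number of LIM homeodomain pairs with more than 50% identical residues was 4 with and without gap columns in the denominator. Of the 81 genes on all lists, 73 were found by symbol and 74 when synonyms were allowed. No paired analysis was possible because the table holds no values per library, and for the same reason no replicate could be left out and no other normalization or low-count filter tried. Differences between neighbours in the order of levels cannot be judged against an error.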
